A study of Mus musculus with 2 samples.

Results

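Hox genes encode homeodomain transcription factors that give cells along the head-to-tail axis their regional identity. In the mouse they lie in 4 clusters, HoxA to HoxD, and genes at matching places of different clusters form 13 paralogue groups. Low-numbered groups are active from the hindbrain backwards, and higher-numbered groups begin progressively further towards the tail, so that in the cord groups 4 to 8 are known from cervical and brachial levels, group 9 from thoracic levels and group 10 from lumbar levels. In spinal neurons this code sets which motor columns and pools form, and many members stay active after birth.

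The members are the rows of the deposited gene table whose gene name is Hox followed by the cluster letter a, b, c or d and a number. This rule finds 39 of the 51826 genes listed: 11 in HoxA, 10 in HoxB, 9 in HoxC and 9 in HoxD. Their levels were compared between spinal cords of C57BL/6 mice at postnatal day 7, with 1 library from mice that carry Olig1-Cre and Secisbp2l floxed at exon 3 (cKO) and 1 library from wild-type mice (WT). Olig1-Cre acts in the oligodendrocyte lineage, whereas the RNA came from the whole cord, so Hox expression of all cell types of the cord is pooled. Whether the Cre also acted in other cells, motor neurons included, cannot be read from these libraries. Neither the number of animals in a library nor the length of cord that was dissected is stated in the labels. With 1 library per group no difference has a replicate check and no p-value is given. Intervals are exact 95% intervals that cover counting error only.

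Estimated counts totalled 55179026 in cKO and 42875143 in WT, and a sequenced fragment was taken as 2 of them. All 14 spinal cord neuron markers examined were measured in both libraries, while the forebrain genes Emx1 and Fezf2, the midbrain gene Otx2 and the brainstem gene Fev were listed at 0 in both. The forebrain gene Neurod6 was the exception, at 21.5 TPM in cKO and 19.2 TPM in WT. Secisbp2l stood at 466 counts per 1000000 (CPM) in cKO and 588 CPM in WT, a log2 ratio of -0.34, a value that does not check the deletion of exon 3 because it pools whole transcripts and all cells. The libraries also differed in sex-linked genes, with 13 counts of Xist in cKO and 35182 in WT, and between 1081 and 4280 counts of each of 4 Y-linked genes in cKO and 0 in WT. Genotype and sex-linked expression therefore cannot be told apart in any ratio below, and the same holds for differences between animals or dissections.

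Both libraries gave the same outline of the Hox code, a broad peak over groups 6 to 9 that stopped at group 10. Levels are compared between genes in TPM, transcripts per 1000000 as deposited by the authors, a unit that accounts for gene length. Group 8 was the most abundant, with a summed level of 387 TPM in cKO and 332 TPM in WT, or 28.9% and 28.2% of all Hox TPM. Group 9 followed with 258 TPM in cKO and 233 TPM in WT. Group 6 held 186 TPM in cKO and 162 TPM in WT, and group 7 held 183 and 175 TPM. The 4 groups from 6 to 9 thus stood above every other group in both libraries. Group 10 reached 89.1 TPM in cKO and 48.2 TPM in WT. The summed level was 2.87 TPM in cKO and 4.98 TPM in WT for group 1, the lowest of the measured groups.

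HoxB carried most of the signal. It held 747 TPM in cKO and 636 TPM in WT, or 55.8% and 54.1% of the Hox total. HoxA held 293 TPM in cKO and 264 TPM in WT, and HoxC held 212 and 191 TPM. HoxD was the weakest cluster, with 87.1 TPM in cKO and 85.4 TPM in WT. Hoxb8, which in the mouse is needed for normal dorsal horn circuits and grooming behaviour, was the most abundant member in both libraries, at 287 TPM in cKO and 223 TPM in WT. It alone accounted for 21.4% of Hox TPM in cKO and 19.0% in WT, and ranked 444 among all genes by TPM in cKO and 596 in WT.

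At the tail end of the clusters, groups 11 to 13 were at or near 0. Hoxc11, Hoxc12, Hoxc13, Hoxd12 and Hoxd13 had 0 counts in both libraries. Hoxa11 and Hoxa13, known from the limb and the most caudal body, had 6 and 4 counts in cKO and 0 in WT, Hoxd11 had 1 count in cKO and 0 in WT, and Hoxb13 had 0 in cKO and 2 in WT. These values lie at or below the floor of 6 counts (3 fragments) that a count of 0 allows, 0.109 CPM in cKO and 0.140 CPM in WT, so no fold is given and no difference was detectable at this depth. At the head end, Hoxb1, which marks a hindbrain segment in the embryo, had 6 counts in cKO and 18 in WT, a log2 ratio of -1.95 with an interval of -4.47 to 0.06.

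Ratios of cKO over WT were computed for genes with a mean of at least 1 CPM in the 2 libraries, on library sizes scaled with the trimmed mean of M-values (TMM), a scaling that sets most genes to equality. Of the 39 Hox genes 29 passed this minimum and 10 did not, so the counts that follow leave out all of groups 11 to 13 and Hoxb1. The lowest mean among those that passed was 1.57 CPM and the highest among those that did not was 0.264 CPM. A gene was called by size where it differed at least 1.5-fold and its interval left out equality. This rule called 3 of the 29 higher in cKO, Hoxd10, Hoxc10 and Hoxd9, and 2 lower, Hoxd3 and Hoxd1. Among all 15917 measured genes it called 2.46% higher and 3.42% lower, beside 10.3% and 6.90% of the measured Hox genes. The members were chosen with earlier results of these data known, so these shares are a description. In bulk tissue, more or fewer cells that express a gene and more or less RNA per cell cannot be told apart.

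The median log2 ratio of the 29 was 0.10, against 0.01 for all measured genes, and 20 of 29 (69.0%) lay above 0 against 52.3% of all measured genes. Most members were close between libraries: 24 of 29 met no call, and these lay between -0.34 (Hoxa4) and 0.53 (Hoxa10). The called genes belong to groups 1, 3, 9 and 10. By region of the code, the median was 0.85 for the 3 measured genes of groups 10 to 13, 0.11 for the 4 genes of group 9, 0.09 for the 15 genes of groups 4 to 8 and -0.08 for the 7 measured genes of groups 1 to 3, where it was 0.10 with a minimum of 5 CPM and 0.06 with the transcript with the most counts. Across the 29 genes, Spearman's rank correlation between paralogue number and log2 ratio was 0.48, given as a description since all points come from the same 2 libraries and genes of a cluster are neighbours.

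**Figure D1:**
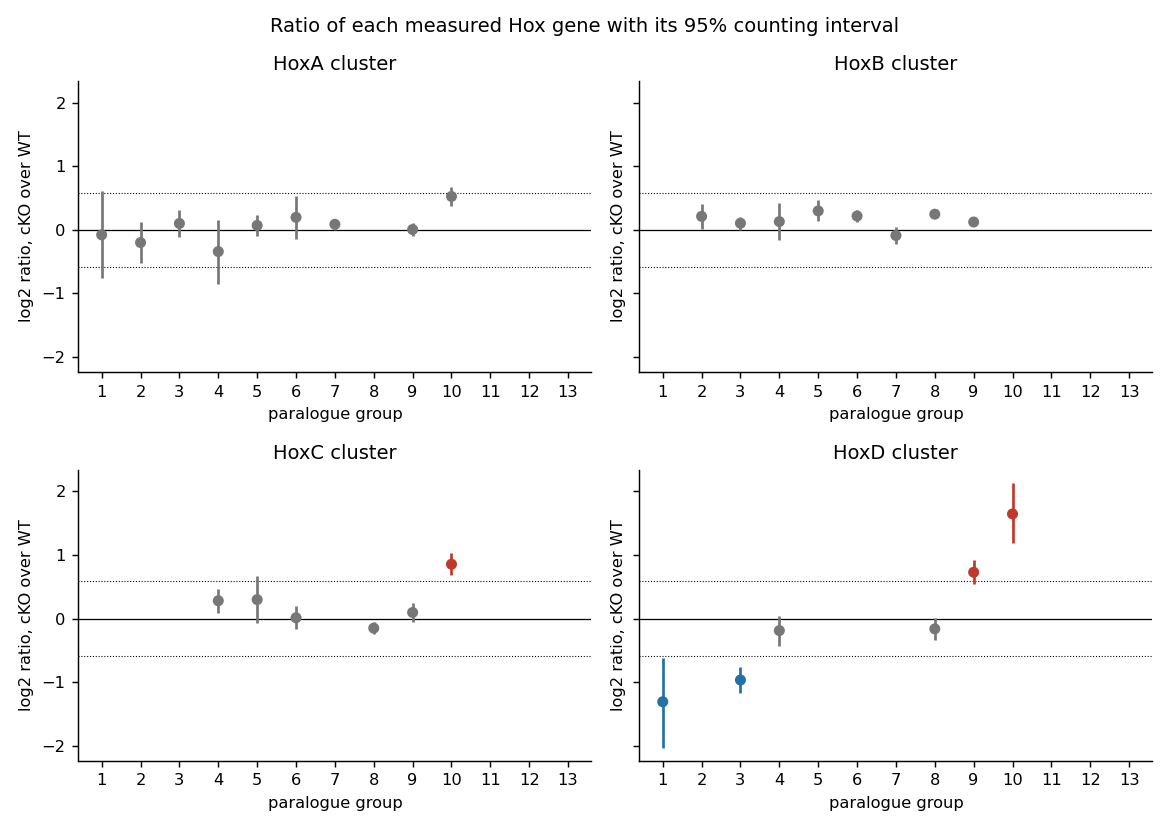
Log2 ratio of cKO over WT for each measured Hox gene against its paralogue group, with a panel per cluster. Vertical lines are 95% counting intervals, dotted lines mark a 1.5-fold difference, and colour marks genes called higher (red) or lower (blue). HoxD runs from -1.31 at Hoxd1 to 1.65 at Hoxd10, while no HoxB gene passes 1.5-fold.

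HoxD showed the widest range and a graded order along the chromosome. The cluster lies on the plus strand of chromosome 2 in GRCm38, with Hoxd13 at its 5′ end and Hoxd1 at its 3′ end. Hoxd10, a determinant of hindlimb motor neurons at lumbar levels, stood at 7.00 CPM in cKO and 2.24 CPM in WT (386 and 96 counts), a log2 ratio of 1.65 (interval 1.18 to 2.13), or 3.13-fold higher in cKO. Hoxd9 stood at 25.3 CPM in cKO and 15.3 CPM in WT, a log2 ratio of 0.73 (interval 0.54 to 0.92). These genes at the 5′ end were the only HoxD members with a ratio above 0. Hoxd8 had 20.3 CPM in cKO and 22.8 CPM in WT (-0.16, interval -0.34 to 0.02), and Hoxd4 had 11.5 and 13.1 CPM (-0.19, interval -0.42 to 0.05). Both intervals include equality. Hoxd3, which with its paralogue Hoxa3 shapes the uppermost vertebrae, had 11.3 CPM in cKO and 22.0 CPM in WT, a log2 ratio of -0.97 (interval -1.18 to -0.76). Hoxd1, which in the mouse acts in the wiring of pain-sensing neurons, had 0.997 CPM in cKO and 2.47 CPM in WT (55 and 106 counts), a log2 ratio of -1.31 (interval -2.03 to -0.62), or 2.48-fold lower in cKO. On gene counts the 6 measured HoxD genes thus stood in the order of their paralogue numbers, with a rank correlation of 1, although the intervals of Hoxd4 and Hoxd8 overlap. The order was lost when the transcript with the most counts stood for each gene, with Hoxd3 at 0.91, above Hoxd9, and Hoxd4 (-0.23) above Hoxd8 (-0.28). The gains and losses offset each other in the sum: summed HoxD counts gave a log2 ratio of -0.03 (interval -0.12 to 0.07).

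Genes interspersed in HoxD, named after their values were seen, did not all go the same way at the 3′ end. Gm28230, which overlaps Hoxd3 and Hoxd4 and shares exons with them, had 388 counts in cKO and 246 in WT (0.30, interval -0.04 to 0.63). Gm14424 and Gm14426, which lie between Hoxd3 and Hoxd1, had 24 and 5 counts in cKO and 45 and 9 in WT, with ratios of -1.27 and -1.21 and an interval that left out equality only for Gm14424 (-2.41 to -0.20). Both fell below the minimum mean of 1 CPM, so neither counts as measured. Haglr, a noncoding RNA transcribed on the opposite strand between Hoxd3 and Hoxd1, had 275 counts in cKO and 271 in WT (-0.34, interval -0.69 to 0.01). Hoxd3os1, which runs opposite to Hoxd8 and the first bases of Hoxd3, was at -0.03 (321 counts in cKO and 255 in WT). Beyond the 5′ end, Evx2 was at 0.27 (interval -0.25 to 0.80) and Lnpk at -0.25, and beyond the 3′ end Mtx2 was at 0.01. All 3 flanking genes lay within 1.5-fold, on either side of 0.

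The start regions of the 4 called HoxD genes are shown because they mark the ends of this order. Each is 300 bases of GRCm38.p6, plus strand, from 250 bases before to 50 bases after the RefSeq start, at chr2:74691641-74691940 (Hoxd10), chr2:74697513-74697812 (Hoxd9), chr2:74711743-74712042 (Hoxd3) and chr2:74762730-74763029 (Hoxd1). Capitals mark CCAAT and AGGTCA, the letters of the CCAAT box and of a nuclear receptor half-site, on either strand (ATTGG and TGACCT where they read on the opposite strand).
Hoxd10: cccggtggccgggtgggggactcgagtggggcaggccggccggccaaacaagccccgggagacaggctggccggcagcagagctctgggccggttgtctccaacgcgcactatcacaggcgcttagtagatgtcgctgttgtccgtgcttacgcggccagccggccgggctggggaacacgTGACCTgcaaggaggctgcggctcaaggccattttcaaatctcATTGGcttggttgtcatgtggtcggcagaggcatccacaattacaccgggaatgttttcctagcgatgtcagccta
Hoxd9: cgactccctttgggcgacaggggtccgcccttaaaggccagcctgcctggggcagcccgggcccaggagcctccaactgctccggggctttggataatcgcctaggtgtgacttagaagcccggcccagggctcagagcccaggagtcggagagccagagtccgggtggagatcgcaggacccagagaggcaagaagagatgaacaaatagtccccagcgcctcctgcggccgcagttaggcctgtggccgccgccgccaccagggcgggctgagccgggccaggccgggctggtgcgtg
Hoxd3: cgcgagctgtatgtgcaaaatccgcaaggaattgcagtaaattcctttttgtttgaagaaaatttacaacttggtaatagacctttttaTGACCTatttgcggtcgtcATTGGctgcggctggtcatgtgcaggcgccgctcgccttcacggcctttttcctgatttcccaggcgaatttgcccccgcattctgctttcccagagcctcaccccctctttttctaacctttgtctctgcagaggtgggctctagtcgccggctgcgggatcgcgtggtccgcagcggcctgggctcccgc
Hoxd1: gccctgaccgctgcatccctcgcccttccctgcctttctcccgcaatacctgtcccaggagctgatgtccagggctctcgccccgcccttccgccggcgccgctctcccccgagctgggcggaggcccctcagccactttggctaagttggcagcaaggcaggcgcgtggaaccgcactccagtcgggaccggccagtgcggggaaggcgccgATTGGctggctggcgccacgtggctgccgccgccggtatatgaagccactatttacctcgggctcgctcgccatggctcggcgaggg

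CCAAT occurs, reading on the opposite strand, 26 bases before the start of Hoxd10, 142 before Hoxd3 and 37 before Hoxd1, counted to the base farthest upstream. AGGTCA occurs likewise 69 bases before Hoxd10 and 161 before Hoxd3. Neither set of letters is in the Hoxd9 window. Of the 32851 RefSeq start regions of this length, 37.4% hold CCAAT and 16.3% hold AGGTCA, and of the 24 that belong to 22 Hox genes in the table, 15 hold CCAAT and 7 hold AGGTCA. The motifs do not overlap each other in these windows. The Hoxd3 window lies at the start of Hoxd3-203, and the start of Hoxd3-201, the transcript that was lower in cKO, was not searched. The 4 windows hold between 20 and 29 CpG sites, against a median of 7 over all start regions.

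The 2 libraries also differed in which Hoxd3 transcript the authors' estimate favoured. Hoxd3-201 begins at position 74739619 and held 5 counts in cKO and 604 in WT, 0.81% (Wilson interval 0.25% to 2.56%) and 64.0% (59.6% to 68.2%) of the gene. Hoxd3-203 begins at 74711927, within the start region printed above, and held 478 counts in cKO and 198 in WT, 76.97% in cKO and 20.97% in WT. Its log2 ratio was 0.91 (interval 0.57 to 1.26), the opposite direction to the gene. The 2 transcripts summed to 483 counts in cKO and 802 in WT (-1.09). Exons of Hoxd3 are shared with Hoxd4 and Gm28230 on the same strand, and counts summed over these 3 genes gave a log2 ratio of -0.45, short of the 1.5-fold limit. On the summed counts Hoxd3 therefore met no call. With summed counts in place of gene counts, the rank correlation in HoxD was 0.99, since Hoxd3 and Hoxd4 then share a value.

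A single member of HoxC met the size rule. Hoxc10, another lumbar gene, had 32.8 CPM in cKO and 18.2 CPM in WT (1811 and 779 counts), a log2 ratio of 0.85 (interval 0.68 to 1.03), or 1.81-fold higher in cKO. It shares annotated exons with Hoxc5, and the 2 genes summed gave 0.76. Its neighbour Hoxc9, which represses brachial identity in thoracic motor neurons, had 29.1 CPM in cKO and 27.2 CPM in WT (0.10, interval -0.06 to 0.25). Hoxc8, a determinant of forelimb motor pools and the most abundant HoxC gene, had 64.5 CPM in cKO and 71.6 CPM in WT (-0.15, interval -0.25 to -0.05), and Hoxc6, which acts in the brachial motor column, had 21.2 CPM in cKO and 20.98 CPM in WT (0.01). The step between Hoxc9 and Hoxc10 was thus the largest between neighbours of this cluster. Hoxc5 and Hoxc4, both cervical in onset, had ratios of 0.30 (interval -0.07 to 0.67) and 0.28 (0.09 to 0.47), so the rank correlation over the 6 measured genes of HoxC was 0.09.

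In HoxA the 9 measured genes met no call. Hoxa10, the third member of the lumbar group, came nearest, with 37.2 CPM in cKO and 25.8 CPM in WT (2050 and 1108 counts), a log2 ratio of 0.53 (interval 0.37 to 0.68), or 1.44-fold higher in cKO. On the authors' TPM, at 40.9 in cKO and 24.2 in WT, it passed 1.5-fold. This difference came mostly from Hoxa10-203, annotated as a processed transcript without a coding frame, with 543 counts in cKO and 5 in WT, or 26.5% (Wilson interval 23.9% to 29.3%) and 0.45% (0.14% to 1.44%) of the gene. Without it the gene had 1507 counts in cKO and 1103 in WT, and the ratio was 0.09 (interval -0.07 to 0.25). Hoxa10-202, the main coding transcript, was at -0.03 (1259 counts in cKO and 1002 in WT), while Hoxa10-201, which starts upstream, was at 0.99 (229 counts in cKO and 90 in WT, interval 0.48 to 1.52). The 3 transcripts overlap in their 3′ exon, and the division between them is the authors' estimate.

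**Figure D2:**
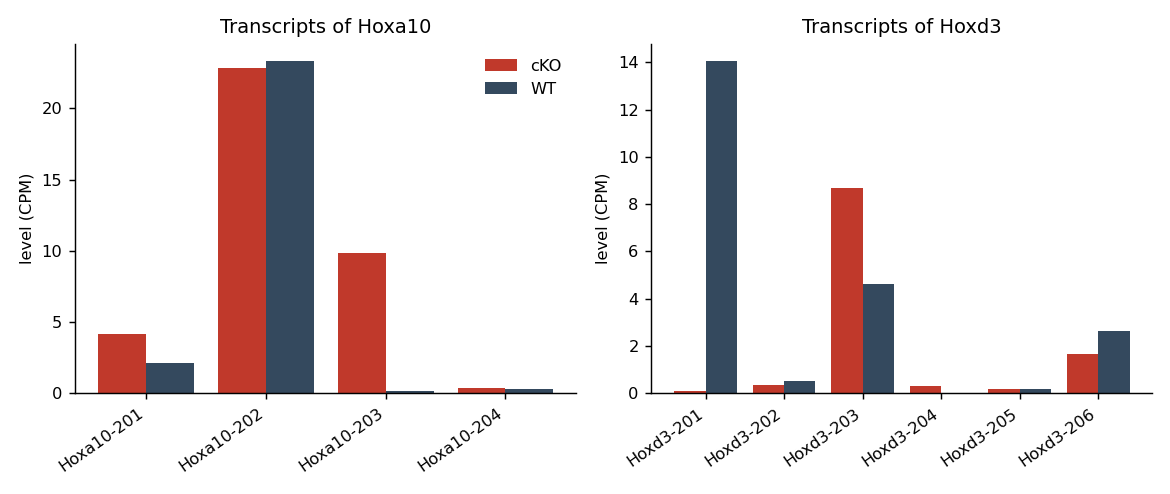
Level in CPM of each transcript of Hoxa10 and Hoxd3 as the authors estimated it, in cKO (red, left bar) and WT (dark, right bar). Hoxa10-203 has 543 counts in cKO and 5 in WT, and Hoxd3-201 has 5 in cKO and 604 in WT.

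Hoxa10 and Hoxd3 were the exceptions in this respect. Of the 40 transcripts that held at least 10% of a measured Hox gene's counts in either library, those whose share differed by more than 10 percentage points were the 4 of these 2 genes, and the shares of the others differed by at most 4.47 points. The rest of HoxA was close to equality. Hoxa7, the most abundant HoxA gene, had 89.5 CPM in cKO and 84.3 CPM in WT (0.09, interval -0.00 to 0.18), and Hoxa9 had 60.9 and 60.7 CPM (0.01, interval -0.10 to 0.11). Hoxa5, required for phrenic motor neurons, was at 0.07 and Hoxa6 at 0.20. Towards the 3′ end, Hoxa4 (-0.34) and Hoxa2 (-0.20) lay below 0 and Hoxa3 (0.10) above it, each with an interval that includes equality. Hoxa2 is known for the identity of a hindbrain segment. The rank correlation over the 9 measured genes of HoxA was 0.58.

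HoxB, the most abundant cluster, differed by little. Its 8 measured genes lay between -0.09 (Hoxb7) and 0.30 (Hoxb5), 7 of them above 0, with 0 called and a rank correlation of 0.00. Hoxb8 had 255 CPM in cKO and 215 CPM in WT (0.25, interval 0.19 to 0.30), Hoxb9 had 152 and 139 CPM (0.12, interval 0.06 to 0.19) and Hoxb6 had 81.3 and 69.9 CPM (0.22, interval 0.12 to 0.31). These intervals are narrow because the genes are abundant, and they say nothing of differences between animals. Hoxb2, Hoxb3 and Hoxb4 were at 0.21, 0.10 and 0.13. HoxB has no gene of group 10, so its series ends at Hoxb9 before Hoxb13. Summed HoxB counts gave a ratio of 0.17 (interval 0.14 to 0.21).

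By paralogue group, the sums changed little between groups 2 and 9 and stood out at both ends. Group 10 had 77.0 CPM in cKO and 46.2 CPM in WT, a log2 ratio of the summed counts of 0.74 (interval 0.63 to 0.85), and its 3 genes lay between 0.53 and 1.65. The sum and the lowest of these values include the noncoding Hoxa10-203, with 543 counts in cKO and 5 in WT. Without that transcript Hoxa10 was at 0.09 (interval -0.07 to 0.25), and the group sum was not computed. Set against its own library, group 10 TPM was 34.6% of group 9 TPM in cKO and 20.7% in WT. These shares also include Hoxa10-203, at 13.18 TPM in cKO and 0.14 TPM in WT. Group 1 had 2.63 CPM in cKO and 4.50 CPM in WT (-0.77, interval -1.23 to -0.32). Hoxb1 and Hoxd1 both lay below 0, and 1 gene of the group, Hoxd1, passed the rule. Sums of groups 2 to 9 lay between -0.08 (group 3) and 0.20 (group 5). Within group 9, Hoxd9 at 0.73 stood apart from Hoxa9, Hoxc9 and Hoxb9, which lay between 0.01 and 0.12.

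**Figure D3:**
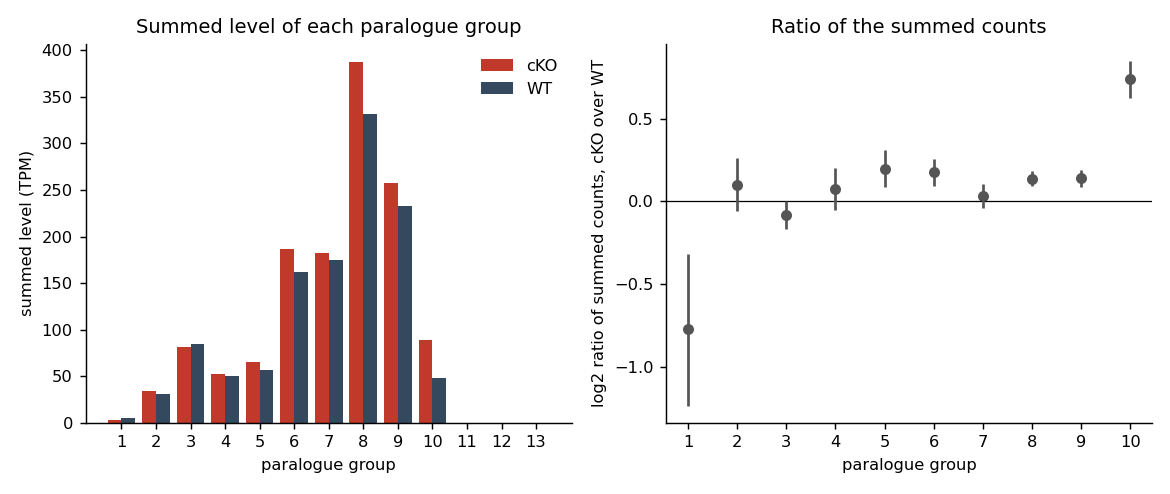
Left, summed level of each paralogue group in TPM, in cKO (red, left bar) and WT (dark, right bar). Right, log2 ratio of the summed counts of cKO over WT with 95% counting intervals for groups with measured genes, from -0.77 in group 1 to 0.74 in group 10.

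Genes that work with the Hox proteins or set their domains differed little. The 9 TALE cofactors, the Pbx, Meis and Pknox genes, homeodomain proteins that bind DNA together with Hox proteins, met no call and had a median log2 ratio of 0.13. Meis2 had 67.5 TPM in cKO and 61.0 TPM in WT, and Pbx3 had 63.5 and 54.4 TPM, the highest of the list. Of 16 genes that position Hox domains in the embryo (retinoic acid and Gdf11 signalling, Cdx factors, and hindbrain factors such as Egr2 and Gbx2), 11 were measured, 0 were called and the median was 0.01. Cdx1, Cdx2 and Cdx4 were listed at 0 in both libraries. Aldh1a2, which makes retinoic acid in the meninges and some motor neurons, had 29.9 TPM in cKO and 28.9 TPM in WT and was the most abundant of them, followed by Cyp26b1, an enzyme that degrades retinoic acid, at 19.8 and 22.1 TPM. The 22 Polycomb and trithorax genes, which keep Hox clusters silent or active, included 0 called genes and had a median of -0.00, with Cbx7 the highest at 0.56 (interval 0.29 to 0.83). Phc1 had 54.5 TPM in cKO and 57.1 TPM in WT, and Phc2 had 54.5 and 61.6 TPM.

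Noncoding RNAs of the clusters followed no common direction. Of 11 found, 7 were measured, 0 were called and their median was -0.03. Hoxd3os1 and Hotairm1, a noncoding RNA of HoxA, were the most abundant, at 19.96 and 15.99 TPM in cKO and 19.6 and 14.3 TPM in WT. Hotair and Hoxa11os, which lie among groups 11 to 13, and Hottip, which lies just beyond Hoxa13, were listed at 0 in both libraries. Of the 12 genes that flank the clusters, 11 were measured and 1 was called. That gene was Evx1, next to Hoxa13 and a marker of V0 interneurons, with 79 counts in cKO and 34 in WT (0.85, interval 0.00 to 1.77, whose lower bound barely clears equality). Cbx5 and Hibadh, the most abundant, were at 0.04 and -0.12.

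**Figure D4:**
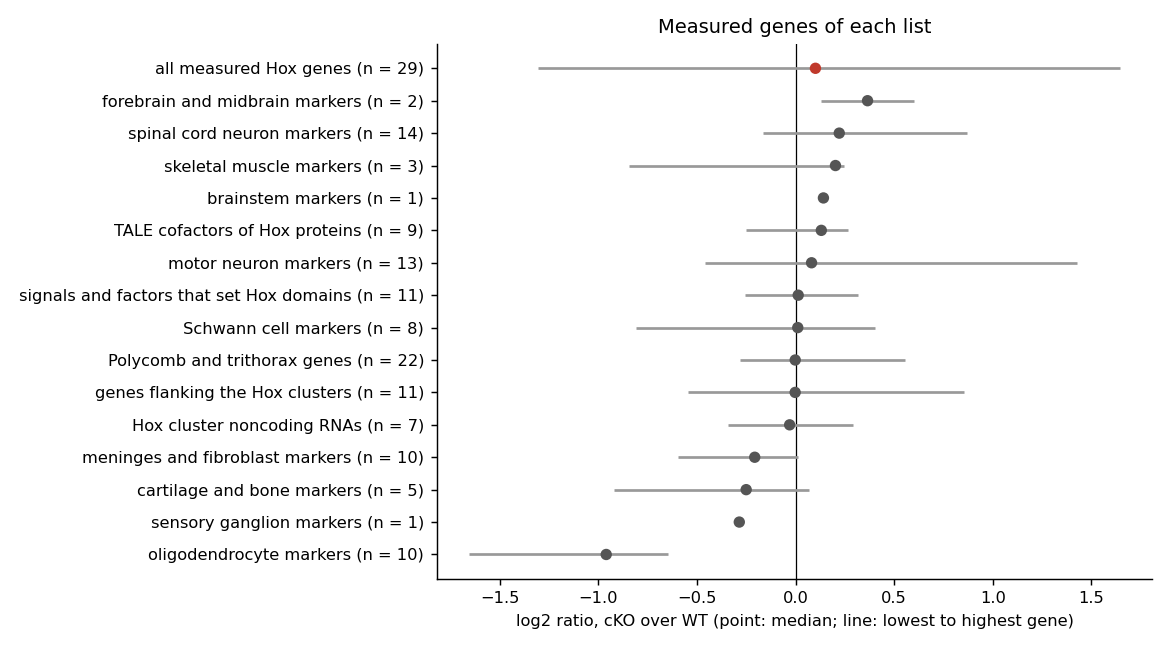
Median (point) and lowest to highest log2 ratio of cKO over WT (line) of the measured genes of each list, with the number measured. Measured Hox genes span -1.31 to 1.65 around a median of 0.10, and the oligodendrocyte markers have a median of -0.96.

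Cell type and tissue markers were set beside the Hox ratios. Spinal cord neuron markers had a median of 0.22, with 1 of 14 called higher and 0 lower. Slc17a6 and Slc32a1, transporters of glutamate and of inhibitory transmitters, were the most abundant at 194 and 184 TPM in cKO and 175 and 155 TPM in WT. Motor neuron markers had a median of 0.08, with 2 of 13 called higher, Foxp1 (1.43), a Hox cofactor in limb-innervating motor neurons that other cells also express, and Isl2 (0.65). On TPM the difference of Foxp1 was smaller, at 22.2 TPM in cKO and 14.7 TPM in WT. Gfra1 and Ret were the most abundant, at 102 and 70.95 TPM in cKO and 75.002 and 59.6 TPM in WT. All 10 oligodendrocyte markers were called lower, with a median of -0.96 and a summed level of 7718 TPM in cKO and 14809 TPM in WT. Opalin (-1.66), Mobp (-1.24) and Ermn (-1.03) were among those with the lowest ratios, and Mbp, the most abundant, was at -0.89. The part of these shifts in the Hox ratios was not tested.

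Tissues beside the cord, which express Hox genes too, were also present at low or moderate levels. Cartilage and bone markers summed to 33.3 TPM in cKO and 39.6 TPM in WT, with 2 of 5 measured genes called lower, Matn3 (-0.92) and Sp7 (-0.72), and Col11a1 the most abundant at -0.12. Skeletal muscle markers summed to 16.0 TPM in cKO and 14.1 TPM in WT, with 1 of 3 called lower (Tnnt3, -0.84), and Myog was at 0. Its most abundant genes were Acta1 (0.20) and Actn3 (0.24). Meninges and fibroblast markers had a median of -0.21, with 1 of 10 called lower (Ogn, -0.60), and the collagen genes Col1a2 and Col1a1 led the list, at 511 and 374 TPM in cKO and 556 and 394 TPM in WT. Sensory ganglion markers summed to 3.33 TPM in cKO and 3.28 TPM in WT, with 1 of 8 measured and 0 called, and P2rx3 the most abundant at 1.13 TPM in cKO and 1.17 TPM in WT. Schwann cell markers had a median of 0.01, with 2 of 8 called lower, Drp2 (-0.81) and Sox10 (-0.59), of which Sox10 is also an oligodendrocyte gene. The myelin gene Pmp22 was at 403 TPM in cKO and 358 TPM in WT. Of the brainstem list 1 of 8 was measured, Phox2a at 0.14, Tph2 came next with 16 counts in cKO and 8 in WT, and its summed level was 4.09 TPM in cKO and 3.61 TPM in WT. Of the forebrain and midbrain list 2 of 8 were measured, with Neurod6 at 0.13 and 1 gene called higher. The part of these tissues in the Hox ratios was not tested.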

How the data were processed

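RNA from whole spinal cord was sequenced in 1 cKO and 1 WT library. Libraries were made with an mRNA kit, per the labels' protocols. CASAVA, Bowtie2 2.3.2 and the GRCm38.p6 build are named, without their roles, per the submitters' processing notes. For the counter, its gene models and its strand option, the entry is not given in the sources used here. Per the file headers, the authors deposited estimated counts, TPM and FPKM for genes and transcripts. Each Hox gene's count is the sum over its transcripts.

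Estimated counts rebuilt from the deposited FPKM and transcript length lay within 0.2 of an even number for 32.8% of 9124 genes with 1 transcript and at most 20 counts in cKO and 34.5% of 8529 in WT, and near an odd number for 19.0% and 18.0%. Even values prevailed over odd ones, but most of these genes did not lie near an even number. A fragment was taken as 2 counts, which remains an assumption behind the intervals. TMM factors from edgeR 4.0.16 (R 4.3.3) were 0.9994 for cKO and 1.0006 for WT. Log2 ratios use no pseudocount. Exact (Clopper-Pearson) intervals of ratios and Wilson intervals of transcript shares were computed on fragments with scipy 1.17.1 and, because reads copied by PCR are not separate molecules, leave out all but counting error. The size rule was tested on simulated counts that held counting error only, drawn with the same 2 counts per fragment. That test cannot bear on differences between animals or dissections.

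With 1 library per group there was no test. Genes sharing exons were found in GENCODE M21, whose spans match those of all 39 Hox genes. Of the 29 measured Hox genes, 8 share exons with a gene on their strand and 9 with an antisense gene that has counts, so their counts are uncertain to that extent. In full are given Hox genes called by size, the 3 of highest TPM per cluster and the measured ones of groups 9 to 13, and from each other list those called (up to 4) and the 2 of highest TPM. Some genes that this rule names are not reported here. The members and lists were chosen with earlier results of these data known. Start regions are from RefSeq (GRCm38.p6), which listed 22 of the 39 genes. FPKM was used only in the fragment check. Alternatives were DESeq2 1.42.0 size factors, upper quartile and total scaling, TPM, summed loci, single transcripts, other minimums, a 2-fold limit and intervals on counts as deposited.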

Additional observations from a re-analysis of the deposited data

How the results depend on the processing

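No paired analysis was possible because each group has 1 library. Under the alternatives, 118 values of counts, medians and sums stayed within the limits set for them, 9 moved beyond and 1 reversed. The limit was 1.5 times for a count and the counting interval for a sum. For a median it was the median lower and median upper bound of its single genes. That range is not an interval of the median, and a sign change inside it was counted as staying. Of single-gene values 222 stayed within their intervals, 9 moved and 1 reversed. DESeq2 size factors, upper quartile and total scaling left all 29 ratios inside their intervals, with 3 genes called higher and 2 lower. On TPM with a pseudocount of 0.1 or 1, 4 were called higher, Hoxa10 being the addition, and the median of all measured genes was 0.05 and 0.04, against 0.01 with TMM.

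With loci that share exons summed, groups 10 to 13 had a median of 1.09. That median covers Hoxa10 (0.53) and Hoxd10 (1.65), since the summed locus of Hoxc5 and Hoxc10 (0.76) was counted once, under Hoxc5. Only 1 gene was lower with loci summed, 1 when the transcript with the most counts stood for the gene, and 1 with a minimum of 5 CPM. That minimum left 2 genes higher, since Hoxd10 falls below it. The median of groups 1 to 3, -0.08, changed sign to 0.10 with 5 CPM and to 0.06 with the single transcript. Both changes were counted above as staying. With that transcript, Hoxd3 turned to 0.91, against -0.97, and the HoxD median to 0.25, against -0.18 with all transcripts, and the order within HoxD was lost. A 2-fold limit left 1 gene higher (Hoxd10) and 1 lower (Hoxd1). Sums of counts in place of TPM moved HoxB from 0.23 to 0.17, group 8 from 0.22 to 0.14 and group 10 from 0.89 to 0.74. With protein coding transcripts only, an alternative chosen after seeing the data, 3 were higher and 2 lower, and Hoxa10 was at 0.08. Depth limits groups 11 to 13, Hoxb1 and Hoxd1, whose intervals are wide.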
